A study of Homo sapiens with 12 samples.

Results

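The imprinted growth loci are the regions around 8 genes that are expressed mainly from the copy inherited from one parent and that act on fetal growth: H19, IGF2, KCNQ1OT1, CDKN1C, DLK1, MEG3, PEG10 and PEG3. Their members here were the ChIP-seq peaks that overlapped chr11:2000000-2200000, which holds H19 and IGF2, or that lay within 20 kb of the start of each of the other 6 genes, in GRCh37 positions. This gave 7 windows with 188 of 273822 listed peaks, namely 52 of 66586 H3K27ac peaks, 117 of 182755 H3K4me1 peaks and 19 of 24481 H3K4me3 peaks. The rule used positions only and no measured value.

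The peaks came from HepG2, an established cell line derived from a human liver tumour, grown without treatment and profiled by chromatin immunoprecipitation and sequencing. The labels describe 12 libraries in 4 groups: 3 libraries for each of the marks H3K27ac, H3K4me1 and H3K4me3, and 3 controls titled as input but labelled with an anti-mouse immunoglobulin. The lists analysed pooled the 3 replicates of each mark, so the spread between cultures and the depth of each library are unknown, no difference was tested, and every comparison is a description of 1 pooled list per mark. Per the series' design text the marks were collected to choose among variants that could be causal. The identity of the line was not checked here against liver genes.

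As background, imprinted genes lie in clusters in which a control region is methylated on the copy from one parent only, and this decides which copy is active. IGF2, a fetal growth factor, and H19, a long non-coding RNA, share enhancers on chromosome 11 and are expressed from the paternal and the maternal copy respectively. KCNQ1OT1 is a paternally expressed RNA antisense to KCNQ1 that silences neighbours such as CDKN1C, an inhibitor of cyclin-dependent kinases that restrains growth. DLK1, a membrane protein of the Notch ligand family made by fetal liver cells, and MEG3, a long non-coding RNA, form a pair on chromosome 14. PEG10, a gene derived from a retrotransposon, and PEG3, a zinc finger gene, are paternally expressed. H3K4me3 is a mark of active promoters, H3K27ac of active promoters and enhancers, and H3K4me1 of enhancers and promoter flanks. Peak lists sum the parental copies, so a mark on 1 copy and a mark on each copy cannot be told apart.

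The 6 placed starts fell into 2 kinds. The starts of KCNQ1OT1, DLK1, PEG10 and PEG3 each lay inside an H3K4me3 peak and inside an H3K27ac peak. The starts of CDKN1C and MEG3 lay in no peak of either mark. In textbook terms the 4 marked starts belong to genes expressed from the paternal copy and the 2 unmarked ones to genes expressed from the maternal copy, a division made after the values were seen. H19 (maternal copy) and IGF2 (paternal copy) were not placed and so are outside this division. None of the 6 starts lay in an H3K4me1 peak. Peaks covered 1.49% of the length of chromosomes 1 to 22 and X for H3K4me3, 3.04% for H3K27ac and 6.47% for H3K4me1. These are shares of length and not of gene starts. The share of all gene starts in a peak was not computed, because GRCh37 starts were not at hand. Whether 4 of 6 is unusual for gene starts was thus not tested. Across the H3K4me3 list, 76.4% of summits lay inside an H3K27ac peak and 40.6% inside an H3K4me1 peak. The 4 starts and the 0 starts were the same under each of the 4 other treatments of the lists that were run (peaks filtered at −log10 q of 5, the 50% of peaks with the highest signal values, equal numbers and joined peaks). All but joining only remove peaks and so cannot bring a start into a peak. For the starts outside peaks, only joining could thus have changed the result. Joining in turn cannot take a start out of a peak.

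**Figure D1:**
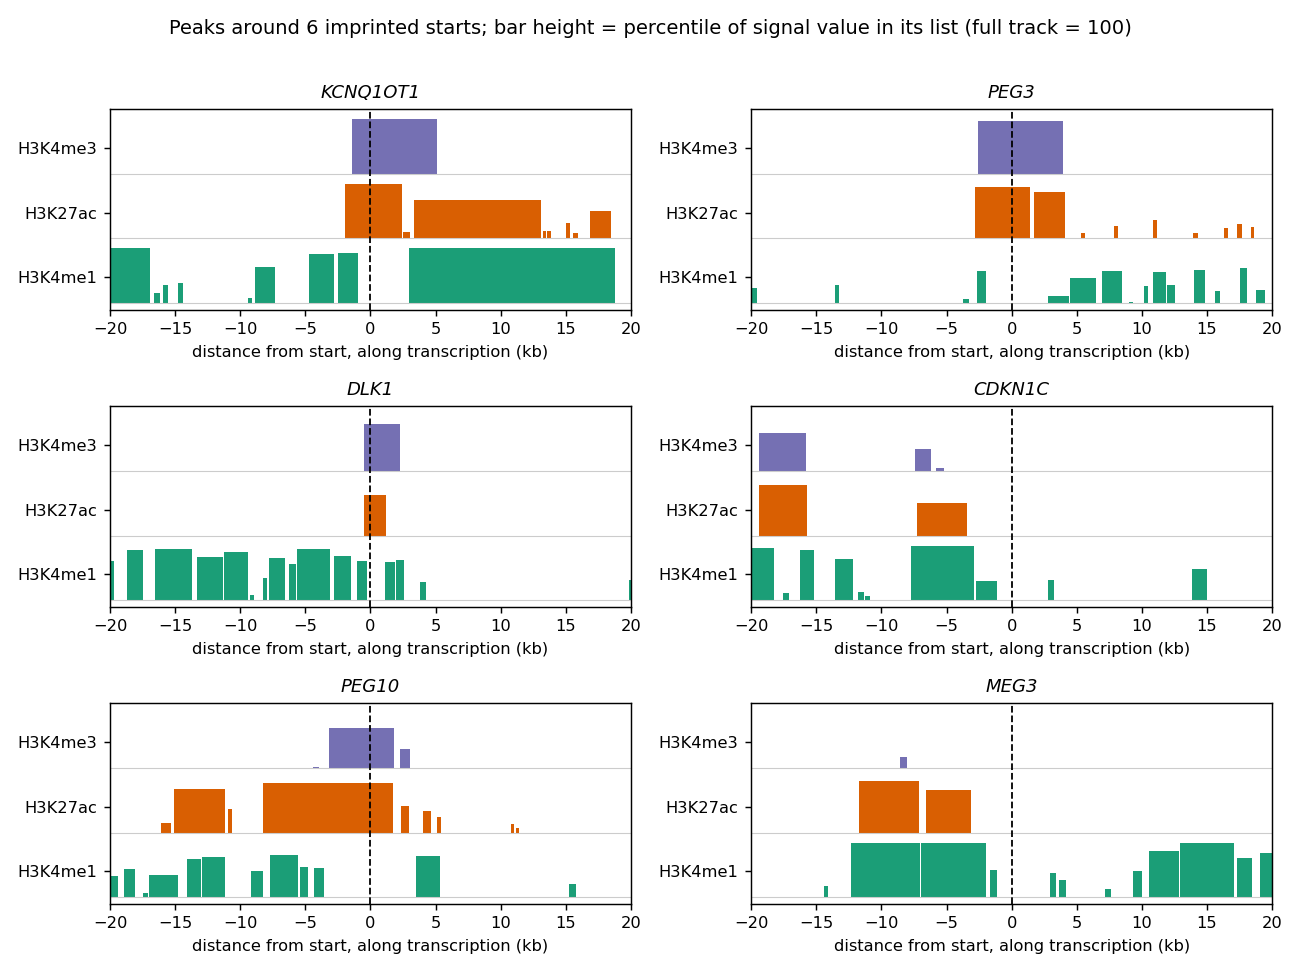
Peaks of 3 marks within 20 kb of 6 starts, drawn along the direction of transcription in kb from the start (dashed line). Each bar spans a peak and its height is the percentile of the signal value in its own list. H3K4me3 and H3K27ac bars cross the start at KCNQ1OT1, DLK1, PEG10 and PEG3, and none cross it at CDKN1C or MEG3.

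MEG3 is the start for which a promoter sequence was at hand among those placed, and it is shown because no mark was called over it. The window holds 250 bases before and 50 after the start, from RefSeq in GRCh38.p14, chr14:100825882-100826181 on the plus strand, matched by symbol. Of 3 RefSeq entries whose starts lie within 24 bases, it is the 1 whose distance from DLK1 is nearest to that in GRCh37. Capitals mark the matches to the motifs searched on both strands: TATAAA and CCAAT, which are promoter elements, and TGCCGC, a form of the recognition sequence of the imprint-keeping factor ZFP57, here as GCGGCA on the plus strand.
MEG3: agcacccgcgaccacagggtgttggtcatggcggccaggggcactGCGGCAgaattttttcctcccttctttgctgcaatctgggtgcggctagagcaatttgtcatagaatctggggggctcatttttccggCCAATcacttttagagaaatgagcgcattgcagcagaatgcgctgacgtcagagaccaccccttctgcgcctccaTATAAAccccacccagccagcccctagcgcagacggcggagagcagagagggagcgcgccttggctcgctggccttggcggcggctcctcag
TATAAA ended 36 bases before the start, CCAAT 112 bases and TGCCGC 199 bases before it. Among 35116 promoter windows of the same length 11.5% held TATAAA, 34.6% CCAAT and 16.7% TGCCGC on either strand. The window had 18 CG dinucleotides, against a median of 14 (interquartile range 4 to 28) over those promoters. Its CG count was thus near the middle of the range. A match is a description of the letters and not of binding.

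KCNQ1OT1 had the strongest promoter marks of the placed starts. Its H3K4me3 peak (chr11:2716117-2722655) had a signal value of 89.7, the enrichment value that the authors' peak caller gave, which ranks peaks only within its own list, and stood at rank 24 of 24481. The peak was 6539 bp wide, wider than 99.3% of the list, and reached from 1427 bp before the start to 5111 bp after it. The H3K27ac peak over the start (chr11:2718767-2723157) had a signal value of 59.6, rank 339 of 66586. Its summit lay 480 bp upstream of the start and that of H3K4me3 331 bp downstream. The start of this RNA is thus among the most strongly marked positions of both lists.

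H3K4me1 left a gap of 3903 bp around the KCNQ1OT1 start, from 936 bp upstream to 2968 bp downstream. The gap was bounded downstream by the strongest H3K4me1 peak of the window (chr11:2702450-2718260, 15811 bp wide, signal value 11.8, percentile 99.6). On the upstream side the nearest H3K4me1 summit lay at 1764 bp, in a peak with a signal value of 6.58. Of the 8 H3K27ac summits, 7 lay downstream of the start, that is inside the transcribed region, and the widest of those peaks (chr11:2708155-2717868, 9714 bp) lay within the span of the strong H3K4me1 peak. Its signal value of 6.50 was at the 69.6th percentile, far below that of the start. The other 6 H3K27ac peaks of the window had signal values of 1.87 to 3.12. Direction along KCNQ1OT1 is read on the minus strand, as explained with the processing.

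Around CDKN1C the marks lay upstream and not at the start. The nearest H3K4me3 peak (chr11:2912170-2912821) had its summit 5575 bp upstream and a signal value of 1.94, at the 5.58th percentile of the list. A second peak with its summit 6770 bp upstream (chr11:2913149-2914415) had a signal value of 7.12. Both overlapped the same H3K27ac peak (chr11:2910409-2914253, signal value 4.09, percentile 59.1). That acetylated stretch also held the strongest H3K4me1 peak of the window (chr11:2909869-2914729), with a signal value of 9.21 at the 98.1st percentile.

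The strongest H3K4me3 and H3K27ac peaks near CDKN1C coincided at the far edge of its window. The H3K4me3 peak there (chr11:2922810-2926396) had a signal value of 36.1 and a summit 16817 bp upstream, and the H3K27ac peak (chr11:2922690-2926373) had 25.7. Which start lies under them was not analysed here. At the gene itself, a stretch of 51092 bp around the start held no H3K4me3 peak and one of 49370 bp no H3K27ac peak. Most of this unmarked length lay downstream, where the next H3K4me3 peak began 45918 bp away. H3K4me1 came closest, with a summit 2473 bp upstream (signal value 2.99) and a gap of 3880 bp over the start. The start position of CDKN1C and the strong start of KCNQ1OT1 are 185767 bp apart.

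The window of H19 and IGF2 was treated as a whole, since the starts of these genes were not placed in GRCh37 here. In RefSeq's GRCh38.p14 the order from lower to higher positions is H19, IGF2, INS, TH. The window carried 21 H3K27ac, 42 H3K4me1 and 9 H3K4me3 peaks. H3K4me1 covered 47.8% of it, more than in 99.5% of the genome's consecutive windows of 200 kb. H3K27ac covered 16.7% and H3K4me3 8.07%, more than in 96.2% and 97.1% of such windows. Among the windows of 200 kb that held H3K4me3, the shares less covered were 99.1% for H3K4me1, 92.5% for H3K27ac and 94.2% for H3K4me3. These 200 kb were therefore densely marked in each list, most so for H3K4me1.

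The strongest acetylation of all 7 windows lay at the lower edge of this span. The H3K27ac peak (chr11:1999077-2014730) was 15654 bp wide, had a signal value of 82.4 and stood at rank 31 of the list. Under it lay 3 H3K4me3 peaks, with signal values of 10.8 (chr11:2003119-2004932), 2.08 and 37.8 (chr11:2009551-2013126). The strongest H3K4me1 peak of the span (chr11:1997719-2010627, signal value 13.4, rank 193 of 182755) covered the lower part of it and ended before the H3K27ac summit at position 2011007. Over that summit lay an H3K4me1 peak of 2.01 (chr11:2010738-2011176), at the 1.16th percentile, and beyond it one of 8.52 (chr11:2011315-2017313). The region thus combined wide, strong acetylation with H3K4me3 in parts of its length. A weak H3K4me1 peak lay over the H3K27ac summit, between the H3K4me1 peaks of 13.4 and 8.52. The 8.52 peak had its own summit close by, at position 2011927. That of the 13.4 peak lay at 2000626, so its signal value does not describe the flank of the H3K27ac summit. The edge of the window cuts through this acetylated region, since 1 H3K27ac and 1 H3K4me1 peak extend below position 2000000.

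The second promoter-like stretch lay towards the upper end of the span. Its H3K4me3 peak (chr11:2156502-2163017) had the highest H3K4me3 signal value of the span, 40.9, at the 73.9th percentile, and was 6516 bp wide, wider than 99.3% of the list. The stronger H3K27ac peak inside it (chr11:2158616-2162370) had a signal value of 24.8, at the 91.1st percentile. Another inside it (chr11:2157182-2158559) had 5.77. The next H3K4me3 peak (chr11:2164720-2165924) had 7.28 and met only the weakest H3K27ac peak of the span, with 1.58. The −log10 q-value of that H3K27ac peak was 1.19, so its q-value was above 0.05. The pair of strong H3K4me3 peaks of the span, with 37.8 and 40.9, thus stood close together in the H3K4me3 list, while their strongest H3K27ac peaks stood at ranks 31 and 5934.

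Between these ends the span was mostly H3K4me1. A stretch of 31.6 kb (chr11:2061998-2093560) held no peak of any list and separated a lower block from an upper block. The lower block ended in the third strongest H3K4me1 peak (chr11:2050523-2061997, signal value 10.4), over which lay 5 H3K27ac peaks of 1.83 to 2.76. In the upper block the second strongest H3K4me1 peak (chr11:2119053-2127482, 13.1, percentile 99.9) held an H3K27ac peak with a signal value of 4.54. Beside it another acetylated site (chr11:2117835-2119956) reached 10.3 with an H3K4me3 peak of 4.31. Other strong H3K4me1 peaks lay at chr11:2046556-2049719 (9.30) and chr11:2141201-2146119 (9.20). From position 2180000 to the upper edge there were 7 H3K4me1 summits and no H3K27ac or H3K4me3 summit.

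**Figure D2:**
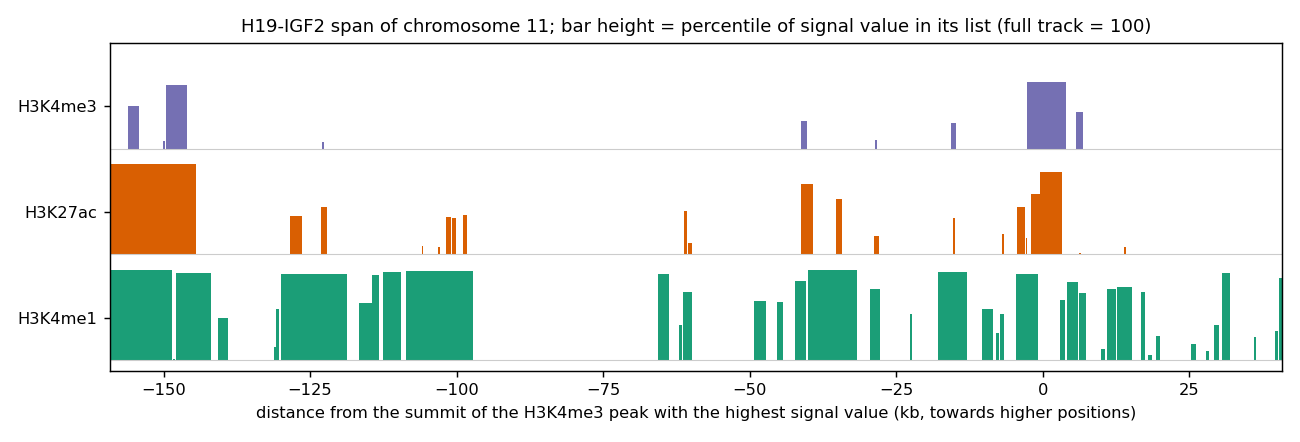
Peaks in the 200 kb span of H19 and IGF2, placed by distance in kb from the summit of its strongest H3K4me3 peak. Bars span peaks and their height is the percentile of the signal value in the list. Marks gather at the lower edge and around 0, with a stretch of 31.6 kb that holds no peak.

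By signal value DLK1 had strong H3K4me3 and little acetylation. Its H3K4me3 peak (chr14:101192722-101195496) had a signal value of 50.8, at the 85.8th percentile, and reached from 480 bp before the start to 2294 bp after it. The only H3K27ac peak of the window (chr14:101192746-101194365) had a signal value of 7.92, at the 73.4th percentile, and a width of 1620 bp. Among the H3K4me3 peaks of the same decile of signal value that overlapped H3K27ac, the median of the highest overlapping H3K27ac signal value was 24.7 (interquartile range 17.1 to 34.3), and 3.64% had a lower one than DLK1. By signal value the DLK1 promoter was thus weakly acetylated for its H3K4me3. This contrast depended on the measure: ranked by −log10 p-value, its H3K4me3 peak stood at the 64.6th percentile and its H3K27ac peak at the 67.2nd.

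H3K4me1 was dense on the upstream side of DLK1. The window had 16 H3K4me1 peaks, more than in 99.1% of the genome's windows of 40 kb and 96.7% of those with H3K4me3. By length covered with H3K4me1 it exceeded 89.6% of those with H3K4me3. The count includes peaks that crossed an edge, with summits outside the window at 20357 bp upstream and 20439 bp downstream. Of the 16 peaks, 12 had their summits upstream of the start. The strongest (chr14:101176625-101179471) had a signal value of 7.19 and its summit 15718 bp upstream, and the nearest, 589 bp upstream, had 4.47. Of the 16 peaks 13 overlapped neither other mark. The gap of H3K4me1 over the start was 1363 bp, the narrowest of the 6. Just outside the window, 1593 bp beyond its downstream edge, lay an H3K27ac peak with a signal value of 14.0 (chr14:101214795-101219548), stronger than the peak at the start.

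MEG3, on the same chromosome, showed the reverse. Its window had no H3K4me3 but for 1 peak of 577 bp (chr14:101283840-101284416) with a signal value of 2.89, at the 19.7th percentile, 8422 bp upstream of the start. Acetylation was strong there: an H3K27ac peak (chr14:101280697-101285367) had a signal value of 28.6, at the 93.2nd percentile, and a neighbour (chr14:101285896-101289289) had 9.99. The nearer of these ended 3156 bp upstream of the start. That nearer peak overlapped the strongest H3K4me1 peak of the window, with 10.7 (chr14:101285489-101290499, percentile 99.2), and the more strongly acetylated one overlapped a peak of 9.05 (chr14:101280121-101285437). Upstream of MEG3 strong H3K27ac and H3K4me1 thus lay together with weak H3K4me3.

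Over and downstream of the MEG3 start there was neither promoter mark for a long distance. A stretch of 76827 bp around the start held no H3K27ac peak and one of 82180 bp no H3K4me3 peak. The nearest H3K4me1 summit lay 1413 bp upstream of the start, with a signal value of 3.42. H3K4me1 was absent from 1137 bp upstream to 2930 bp downstream and then returned, with 8 summits downstream, of which the strongest (chr14:101305368-101309519) had a signal value of 10.6. H3K4me1 covered 54.6% of the window, against 43.0% at DLK1. The peak lists hold no H3K4me3 at the promoter whose sequence is shown above.

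PEG10 carried H3K4me3 and broad acetylation on its upstream side. The H3K4me3 peak over the start (chr7:94282480-94287482) had a signal value of 40.004, at the 72.9th percentile, and a width of 5003 bp. The H3K27ac peak (chr7:94277386-94287394) was 10009 bp wide, with a signal value of 23.2 at the 90.1st percentile, and reached 8251 bp upstream but 1757 bp downstream. This upstream side faces SGCE, a neighbouring imprinted gene read in the opposite direction. The start of SGCE was not placed here, so which of these marks belong to PEG10 and which to SGCE cannot be told. A further H3K27ac peak of 10.96 lay 13327 bp upstream (chr7:94270549-94274446) without H3K4me3.

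H3K4me1 at PEG10 had no peak in the top 10% of its list. It covered 34.3% of the window, more than in 95.2% of the genome's windows of 40 kb and 82.0% of those with H3K4me3. Its strongest peak (chr7:94277889-94280075) had a signal value of 4.84, at the 77.3rd percentile, and the nearest summit to the start, 4120 bp upstream, had 3.56. The gap of H3K4me1 over the start was 7092 bp, the widest of the 6. Of the 9 H3K27ac peaks 3 overlapped neither methylation, with signal values of 1.84 to 2.69.

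PEG3 had the second strongest H3K4me3 of the placed starts. Its peak (chr19:57348153-57354649) had a signal value of 64.1, rank 934, and a width of 6497 bp, from 2552 bp before the start to 3944 bp after it. The summit lay 2099 bp downstream of the start, the farthest of the 4 marked starts. A pair of H3K27ac peaks lay under it: that over the start (chr19:57350687-57354887) had 28.3, and that downstream (chr19:57348019-57350387) had 15.8. Against the decile of H3K4me3 peaks it belongs to, whose median H3K27ac was 30.8, its acetylation was in the middle, with 43.5% lower. The PEG3 start thus lay within strong promoter marks. Starts of neighbouring genes were not placed here, so whether all of these marks belong to PEG3 cannot be told.

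Away from those promoter marks the PEG3 window had only weak peaks. The remaining 7 H3K27ac peaks, all downstream, had signal values of 1.86 to 2.37. The strongest of 15 H3K4me1 peaks (chr19:57334004-57334533) had 3.98, at the 63.7th percentile, which made PEG3 the window with the lowest H3K4me1 maximum. The nearest H3K4me1 summit, 2139 bp upstream, had 3.74. Of the 15 peaks, 11 had their summits downstream of the start, inside the gene's direction of reading.

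Ordering the 7 windows by their strongest peak gave different orders for each mark. For H3K4me3 the order of signal values was KCNQ1OT1 (89.7), PEG3 (64.1), DLK1 (50.8), the H19 and IGF2 span (40.9), PEG10 (40.004), CDKN1C (36.1) and MEG3 (2.89). For H3K27ac it was the span (82.4), KCNQ1OT1 (59.6), MEG3 (28.6), PEG3 (28.3), CDKN1C (25.7), PEG10 (23.2) and DLK1 (7.92). For H3K4me1 it was the span (13.4), KCNQ1OT1 (11.8), MEG3 (10.7), CDKN1C (9.21), DLK1 (7.19), PEG10 (4.84) and PEG3 (3.98). With no replicate values, neighbours such as MEG3 and PEG3 in the H3K27ac order cannot be told apart. KCNQ1OT1 was high in all 3 lists, DLK1 was high for H3K4me3 and last for H3K27ac by signal value, and MEG3 was last for H3K4me3 and high for the other marks. Ranked by −log10 p-value, the H3K4me3 peak of DLK1 (percentile 64.6) fell behind those named for CDKN1C (76.2), the span (69.8) and PEG10 (68.4). The span is 200 kb long and the other windows 40 kb, so that it had more peaks from which a maximum is taken.

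**Figure D3:**
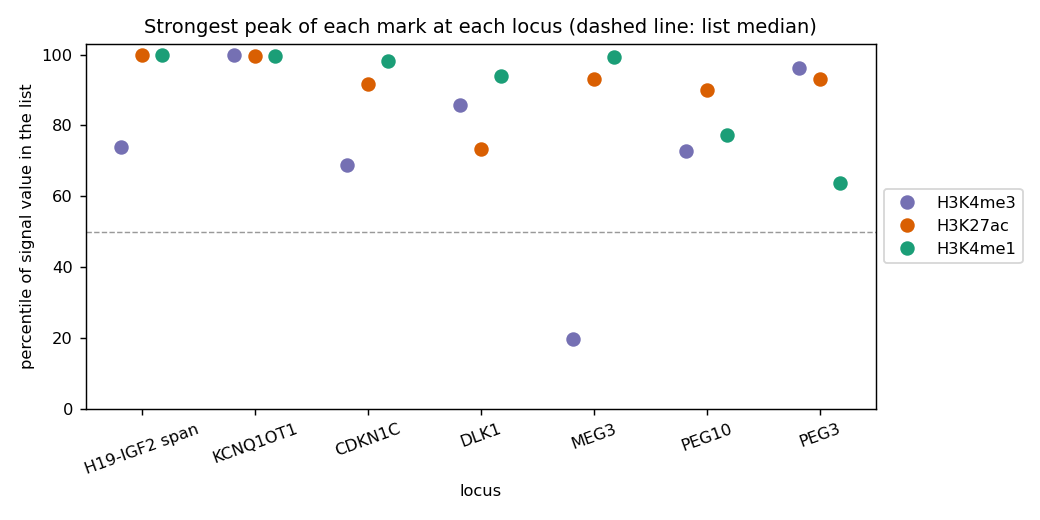
Percentile, within its own list, of the strongest peak of each mark in each of the 7 windows. MEG3 H3K4me3 stands alone below the list median, at 19.7, and DLK1 H3K27ac is the lowest H3K27ac point, at 73.4.

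In all, peaks at or above the 90th percentile of their list made up 7 of the 52 H3K27ac peaks, 24 of the 117 H3K4me1 peaks (20.5%) and 2 of the 19 H3K4me3 peaks, against 10% of each list by construction. Of the 24 H3K4me1 peaks 12 lay in the H19 and IGF2 span, and PEG10 and PEG3 had none. The strongest peak of a window was in that top 10% at 6 windows for H3K27ac, 5 for H3K4me1 and 2 for H3K4me3. Ranked by −log10 p-value these were 4, 5 and 1, since the H3K27ac peaks of PEG10 and PEG3 and the H3K4me3 peak of PEG3 left the top 10%. The 10% by construction holds for single peaks and is no scale for the strongest of several peaks. How many genome windows have a strongest peak in the top 10% was not computed. Each of the 7 windows held at least 1 peak of each list, while 29.1% of the genome's windows of 40 kb held H3K27ac, 49.8% H3K4me1 and 21.9% H3K4me3, and 53.5%, 73.1% and 50.7% of those of 200 kb. Windows set around genes are not like the genome at large, so these shares serve as scale only.

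Coverage showed the breadth of the marks. Over the 440 kb of the windows, H3K27ac peaks covered 21.3%, H3K4me1 45.4% and H3K4me3 10.0%, against 3.04%, 6.47% and 1.49% of the genome. The genome at large is an unlike background for windows set around genes. In genome windows of 40 kb with an H3K4me3 peak the medians were 7.22%, 14.9% and 5.74%. In those of 200 kb they were 3.51%, 8.41% and 2.14%. H3K4me1 ranged from 29.5% at PEG3 to 63.6% at KCNQ1OT1. H3K27ac ranged from 4.05% at DLK1 to 43.5% at KCNQ1OT1, with 42.3% at PEG10. H3K4me3 ranged from 1.44% at MEG3 to 16.3% at KCNQ1OT1. PEG10 was the only window in which H3K27ac covered more than H3K4me1, and DLK1 the only window in which H3K4me3 covered more than H3K27ac. Among the 16600 genome windows of 40 kb with an H3K4me3 peak, 34.3% were less covered by H3K27ac than DLK1 and 97.5% less than KCNQ1OT1.

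**Figure D4:**
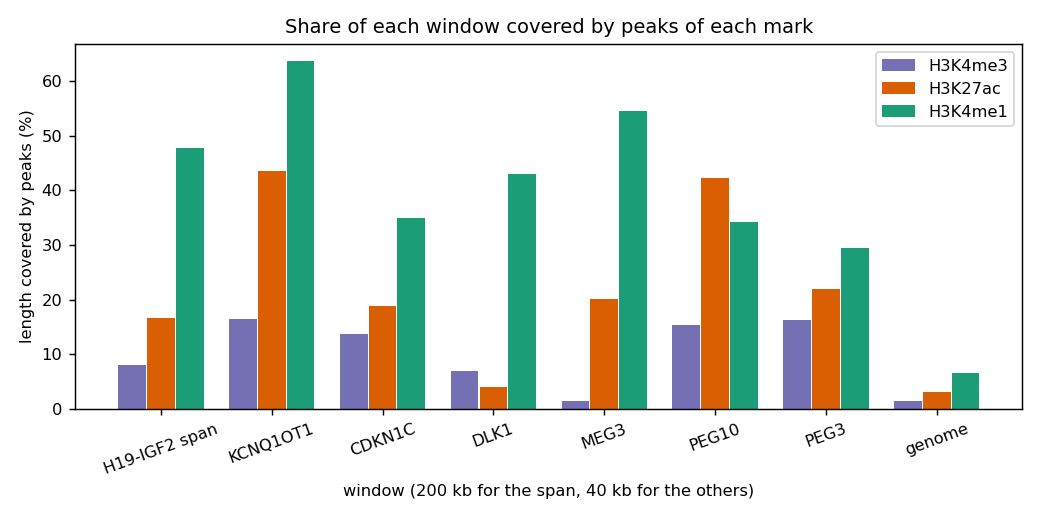
Percent of each window covered by peaks of each mark, with the genome-wide share at the right. Bars start at 0; each bar is 1 pooled list, so there is no error bar. DLK1 has the lowest H3K27ac bar (4.05%) and MEG3 the lowest H3K4me3 bar (1.44%).

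Overlap between the marks was counted next. All 19 H3K4me3 peaks overlapped H3K27ac, against 77.5% of the list, and 17 overlapped H3K4me1, against 92.7%. The other 2 were at PEG10, at and just after its start. Of the 52 H3K27ac peaks 19 were promoter-like, overlapping H3K4me3 (31.7% of the list), 28 were enhancer-like, with H3K4me1 and no H3K4me3 (59.8%), and 5 overlapped neither methylation (8.53%). Those 5 were 3 at PEG10 and 2 at PEG3. The order of these 2 classes depended on the settings: enhancer-like peaks did not outnumber promoter-like ones within 10 kb of the starts (18 and 18), at a −log10 q of 5 or more (15 and 18), in the stronger 50% (8 and 10) or with equal numbers per list (1 and 12). Of the 117 H3K4me1 peaks 72 overlapped neither other mark, a share near the 61.6% of the list. These shares were close to the background except for H3K4me3 with H3K27ac, where 9 of the 19 peaks came from the H19 and IGF2 span and 3 of those shared 1 H3K27ac peak. That exception depended on the settings. It was 12 of 19 with equal numbers per list, 17 of 18 at a −log10 q of 5 or more and 17 of 19 with 50% of the peak covered. In the other settings all H3K4me3 peaks overlapped H3K27ac. The share of the whole list was not computed under these settings.

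For given H3K4me3, acetylation varied widely among the loci. Percentages and medians in what follows are over those H3K4me3 peaks of a decile that overlapped H3K27ac at all, and peaks without H3K27ac are left out. The 3 H3K4me3 peaks under the wide H3K27ac peak of the H19 and IGF2 span had an H3K27ac signal value of 82.4, higher than at least 99.8% of such peaks of their deciles. MEG3's weak H3K4me3 peak lay in H3K27ac of 28.6, higher than 89.2% of the 1279 such peaks among the 2448 of its decile, whose median was 7.66. KCNQ1OT1 exceeded 92.8% of the strongest decile, in which all 2449 peaks overlapped H3K27ac. At the other end were DLK1, above 3.64% of the 2447 such peaks of its decile, and the H3K4me3 peak of the span at chr11:2164720-2165924, with no lower H3K27ac among the 1603 such peaks of the 2448 in its decile. The H3K27ac peak that this last one met had a q-value above 0.05, so its place is near that of peaks without H3K27ac. PEG10, with 23.2 against a decile median of 21.2, and the strong peak at the upper end of the span, with 24.8, were in the middle.

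**Figure D5:**
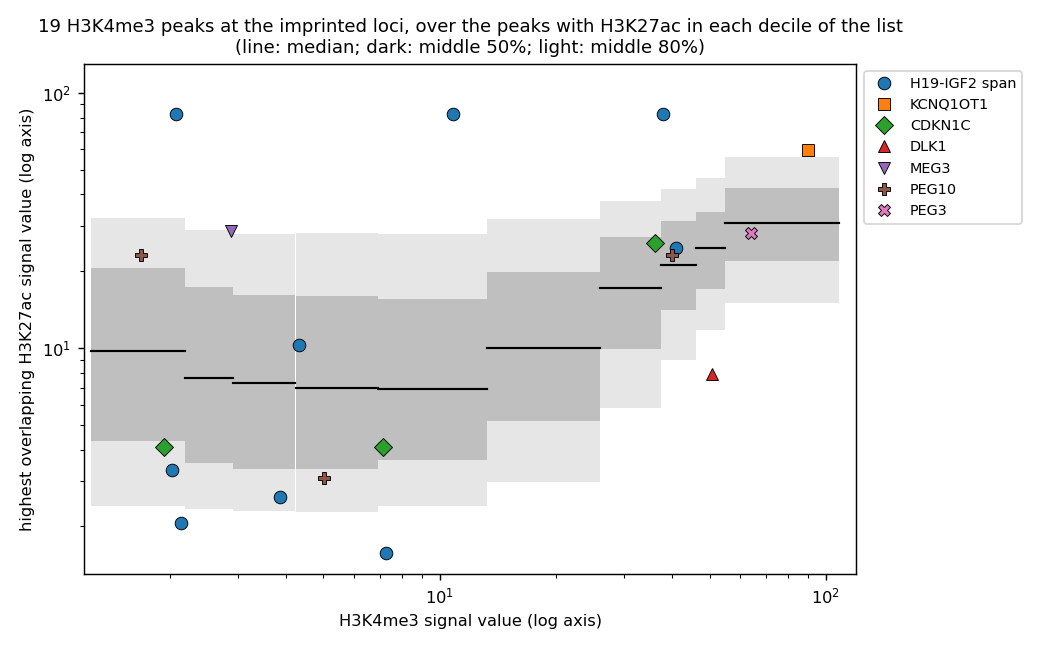
Each of the 19 H3K4me3 peaks by its signal value and the highest signal value of an overlapping H3K27ac peak, both on log axes, over the median, middle 50% and middle 80% of the peaks with H3K27ac in each decile of the whole H3K4me3 list. DLK1 (50.8 and 7.92) lies below the band of its decile; 3 points of the span lie above at 82.4 because they share 1 H3K27ac peak.

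H3K4me1 was absent over each of the 6 starts, marked or not. Its peaks covered 6.47% of the genome, and 40.6% of all H3K4me3 summits lay inside one. Most positions and most H3K4me3 summits thus lacked it too, and its absence is not particular to these starts. The gaps without H3K4me1 were 3903 bp at KCNQ1OT1, 3880 bp at CDKN1C, 1363 bp at DLK1, 4066 bp at MEG3, 7092 bp at PEG10 and 4751 bp at PEG3. At KCNQ1OT1, DLK1, PEG10 and PEG3 an H3K4me3 peak lay over the gap. At CDKN1C and MEG3 neither H3K4me3 nor H3K27ac did, so those gaps were free of all 3 marks.

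The choice of 20 kb was not neutral for the counts. With the span unchanged, windows of 10 kb to either side held 36 H3K27ac peaks. Windows of 50 kb held 90, against 52 in the main setting. The peaks nearest to an edge on the inside, at whatever distance, had signal values of 2.01 to 82.4 for H3K27ac, 2.80 to 11.8 for H3K4me1 and 1.69 to 89.7 for H3K4me3. The nearest outside had 2.05 to 14.0, 2.35 to 10.8 and 1.84 to 22.4. The inside values include peaks over starts, such as 89.7 at KCNQ1OT1. The 82.4 lies at an edge of the span, which the 20 kb do not set. These ranges are thus no measure of marks at the 20 kb edges. Peaks that crossed an edge, and were counted, numbered 1 for H3K27ac, 8 for H3K4me1 and 0 for H3K4me3. Signal medians over the lists differed between the chromosomes of the loci, for H3K4me3 from 13.6 on chromosome 7 to 19.6 on chromosome 19, and ranking within the chromosome moved PEG3 H3K4me3 from the 96.2nd to the 93.1st percentile.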

How the data were processed

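Per the submitters' processing notes, MACS2 and the build hg19 (GRCh37) were named, without role, version or threshold. The aligner and the use made of the control libraries are not given in the sources used here. The authors deposited 1 peak list per mark, pooled over replicates by its name, with each peak's signal value, score, −log10 p-value and −log10 q-value. The deposited score was not used, and signal values were ranked only within a list. The lowest deposited −log10 p-value was 2.00, 2.00 and 2.03 for H3K27ac, H3K4me1 and H3K4me3, and 2 member peaks had a q-value above 0.05.

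Positions count from 1. A peak belonged to a window where at least 1 bp overlapped, and marks were shared at 1 bp. Percentile is the share of the list at or below a signal value. Genome windows were consecutive, from position 1 to the last peak of chromosomes 1 to 22 and X. The members and lists were chosen with earlier results of these data known. In each window the strongest peak of each list and the peak nearest to the start were named, and in the span of H19 and IGF2 the 5 strongest. KCNQ1OT1 was listed on the plus strand, but the distance from its start to that of CDKN1C matched the upper end of the gene in RefSeq's GRCh38.p14 within 14 bp, against 91680 bp for the lower end, so it was read on the minus strand. Planned lists of other imprinted genes, growth factor genes and cell type markers were not used here, because GRCh37 starts were not at hand. Promoter sequences were matched for 2 of 8 members, H19 and MEG3, and that of H19 was not set against the peaks. Python 3.11.15, numpy 2.4.6, pandas 2.3.3 and matplotlib 3.10.9 were used, and overlap counts were checked on simulated peaks (200 of 200 planted overlaps recovered among 1000 sites).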

Additional observations from a re-analysis of the deposited data

How the results depend on the processing

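Over 16 results, 101 alternative values were computed, all planned: 69 stayed within 1.5 times the main count and 32 moved further. Leaving out replicates was not run, because the lists are pooled. No paired analysis was possible because the pooled lists carry no replicate numbers and no test was run. Each of the 7 windows held a peak of each list under the alternatives, except that 6 held H3K4me3 in the stronger 50% and 5 held H3K4me1 with equal numbers per list. Most moves follow from how an alternative is built, with wider windows, fewer peaks or joined peaks.

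With 10 kb windows there were 18 enhancer-like H3K27ac peaks and 45 H3K4me1 peaks alone. With 50 kb windows there were 90 H3K27ac, 204 H3K4me1 and 29 H3K4me3 peaks, 29 H3K4me3 peaks with H3K27ac, 57 enhancer-like peaks and 127 H3K4me1 peaks alone, and H3K27ac covered 161865 bp and H3K4me1 353664 bp. A −log10 q-value of at least 5 left 34 H3K27ac peaks, 15 enhancer-like peaks and 43 H3K4me1 peaks alone. The stronger 50% of each list held 18 H3K27ac, 68 H3K4me1 and 7 H3K4me3 peaks, 7 H3K4me3 peaks with H3K27ac, 10 promoter-like and 8 enhancer-like peaks and 44 H3K4me1 peaks alone. Equal numbers per list gave 14 H3K27ac and 28 H3K4me1 peaks, with 121392 bp of H3K4me1, 12 H3K4me3 peaks with H3K27ac, 12 promoter-like peaks, 1 enhancer-like peak and 12 H3K4me1 peaks alone. Joining peaks within 1000 bp gave 32 H3K27ac and 50 H3K4me1 peaks, 17 enhancer-like peaks and 22 H3K4me1 peaks alone. Ranked by −log10 p-value, 1 window had an H3K4me3 peak in the top 10%.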
